A study of Mus musculus with 6 samples.

Results

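Genes whose symbols begin with Atp and a digit mostly encode subunits of the ATPases that move ions and lipids across membranes. Among the 1285 genes of the authors' deposited table, 9 genes had such a symbol. They were taken by symbol, with earlier results of these data known. They were grouped here as vacuolar (4 genes: Atp6v0e2, Atp6v0b, Atp6v0c and Atp6v1g1), P-type (5 genes: Atp1b1, Atp1b3, Atp9a, Atp13a3 and Atp2b1) and mitochondrial (0 genes). The RNA came from mouse bone marrow MSPCs (mesenchymal stem and progenitor cells), stromal cells that help form the niche of blood stem cells, in 3 Snai2-/- libraries and 3 control libraries from littermates aged 8 weeks. Both groups were sorted on Nes-GFP, a fluorescent reporter under nestin regulatory sequences, and each library was made from 2000 cells sorted as positive for it and negative for CD45, Ter119 and CD31. The labels give the animals of the other genotype only as control, without their alleles, and do not say whether each library stands for 1 animal. Snai2 encodes Slug, a zinc-finger repressor of the Snail family that binds E-box sequences, and the comparison asks what its loss does to the RNA of these cells.

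ATP drives 3 kinds of machine in this family. The vacuolar ATPase (V-ATPase) is a rotary proton pump: its V1 sector in the cytosol splits ATP and turns a ring of proteolipid subunits in the membrane-bound V0 sector, which acidifies lysosomes, endosomes and secretory vesicles, and in osteoclasts the resorption space on bone. P-type pumps pass a phosphate onto themselves as they move sodium and potassium, calcium, copper, polyamines or phospholipids, and the sodium pump (Na,K-ATPase) needs a beta chain to reach the cell surface. The mitochondrial F1Fo enzyme runs the other way and makes ATP.

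The deposited values are 1 mean per group on the authors' scale, read here as normalized. Each gene also has a p before adjustment and an FDR (false discovery rate, a step-up adjusted p). Library values, their spread and their depth were not analysed here, so no SD and no count of libraries per direction stands beside any value. The labels and headers do not say whether the scale is per transcript length, so levels are compared within a gene and not between genes. As a check of the labels, the authors' deposited table gave the deleted gene Snai2 a mean of 9.20 in Snai2-/- cells and 636 in control cells, 69.2 times lower at an FDR of 0.0758. The identity of the sorted cells could not be checked from 14 of its 16 marker genes, Nes and Lepr among them, because they are not in the table. For the other 2 markers, the authors' deposited table gave Ebf1 a mean of 210.3 in Snai2-/- cells against 362.5 in control cells and Angpt1 a mean of 126.1 against 171.3.

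Since Slug binds E-boxes, the promoters of the Atp genes were read for the E-box core CAGGTG, which Snail-family factors bind and which reads CACCTG on the other strand. They were also read for CACGTG, the palindromic core of the CLEAR element through which TFEB is known to act on lysosomal and V-ATPase genes. RefSeq promoter windows (GRCm38.p6, 250 bases before to 50 bases after the start) were found for 7 of the 9 genes, all but Atp13a3 and Atp6v1g1. The 250 bases before the most upstream start are shown 5′ to 3′ for the 3 genes with the Slug-type core and for Atp1b1, which has the second highest ratio and holds neither core. Capitals mark both cores. Atp6v0e2 is at chr6:48537319-48537568 on the plus strand, Atp6v0b at chr4:117887330-117887579, Atp1b3 at chr9:96364432-96364681 and Atp1b1 at chr1:164458356-164458605, the last 3 on the minus strand.
Atp6v0e2: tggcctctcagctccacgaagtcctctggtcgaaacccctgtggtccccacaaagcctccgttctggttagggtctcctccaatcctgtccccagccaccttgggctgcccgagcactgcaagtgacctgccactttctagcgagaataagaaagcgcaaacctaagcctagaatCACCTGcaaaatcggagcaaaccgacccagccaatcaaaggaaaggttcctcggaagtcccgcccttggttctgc
Atp6v0b: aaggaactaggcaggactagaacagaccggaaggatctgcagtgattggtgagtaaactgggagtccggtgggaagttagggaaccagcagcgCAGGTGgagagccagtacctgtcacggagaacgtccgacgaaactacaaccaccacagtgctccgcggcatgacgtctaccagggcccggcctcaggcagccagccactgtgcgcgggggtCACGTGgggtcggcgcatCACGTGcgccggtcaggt
Atp1b3: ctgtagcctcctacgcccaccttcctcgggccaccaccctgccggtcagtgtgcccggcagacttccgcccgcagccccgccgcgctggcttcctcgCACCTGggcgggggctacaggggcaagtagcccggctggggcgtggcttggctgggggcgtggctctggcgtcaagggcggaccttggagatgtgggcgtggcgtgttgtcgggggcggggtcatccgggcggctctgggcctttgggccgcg
Atp1b1: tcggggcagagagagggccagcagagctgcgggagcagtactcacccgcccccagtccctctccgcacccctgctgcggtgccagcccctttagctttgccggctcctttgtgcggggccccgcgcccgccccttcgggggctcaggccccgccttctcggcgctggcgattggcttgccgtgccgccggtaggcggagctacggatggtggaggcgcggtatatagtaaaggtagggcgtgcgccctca

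The Slug-type core lay from position -75 to -70 in Atp6v0e2 and from -153 to -148 in Atp1b3, where -1 is the base just before the start. Atp6v0b held it from -157 to -152 and again from -5 to 1, a match that crosses the start and is therefore not in capitals above. CACGTG occurred in Atp6v0b from -36 to -31 and from -18 to -13, and in Atp2b1 from 9 to 14, where the longer form TCACGTGA ran from 8 to 15. Over the whole window, 3 of 7 Atp genes held the Slug-type core, against 20.0% of all 27025 genes with a window. CACGTG was found in 2 of 7 against 7.24% of all genes, and TCACGTGA, which contains it, in 1 of 7 against 1.0% of all genes. The shares over all genes were not matched for GC. The 250 bases before the start held from 55.2% GC (Atp6v0c) to 78.4% GC (Atp2b1), against a median of 52% over all genes. The 3 genes with the Slug-type core in the most upstream window had higher means in Snai2-/- cells, and so did Atp1b1 and Atp9a, which lacked it there. Atp6v0c and Atp2b1, with lower means, also lacked it there. With any annotated start counted, Atp9a and Atp6v0c held the core too, so genes with it had means on both sides. A match describes letters in a window and does not show binding.

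**Figure D1:**
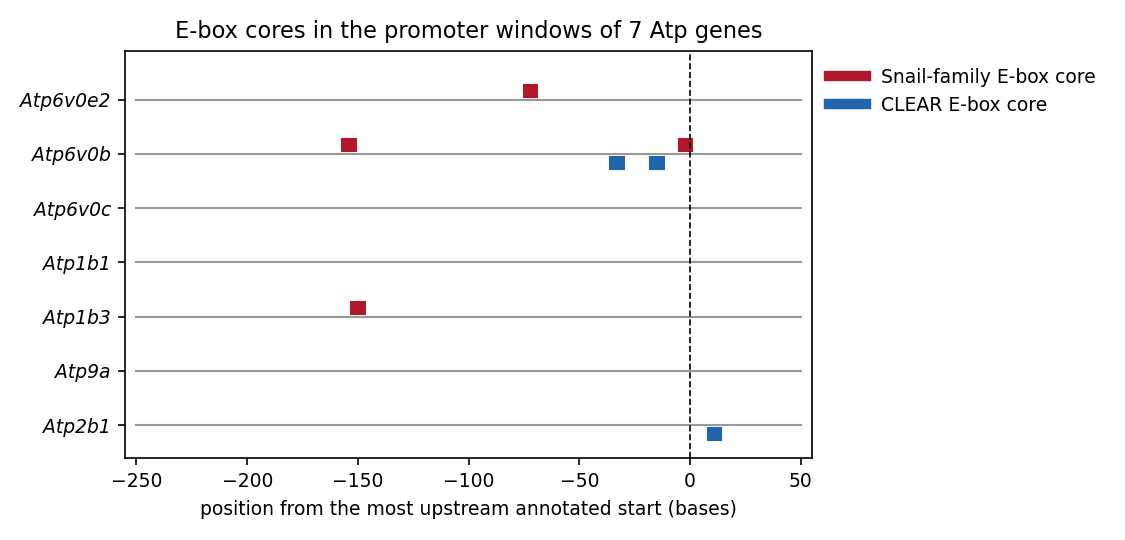
Promoter windows of the 7 Atp genes found in RefSeq, 1 line per gene, with the position in bases from the most upstream annotated start on the horizontal axis and the start as a dashed line. Red boxes mark the Slug-type core, at -75 in Atp6v0e2, -157 and -5 in Atp6v0b and -153 in Atp1b3, and blue boxes mark CACGTG in Atp6v0b and Atp2b1.

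Among the listed Atp genes, 6 had a higher and 3 a lower mean in Snai2-/- cells, and the widest differences were all upward. None reached an FDR of 0.05, nor did any other gene (0 of 16718 tested, 0%), and in the authors' deposited table the FDR of the 9 ran between 0.242 and 0.646. At an unadjusted p below 0.05 the table lists 7.69% of the 16718 genes tested, 3.77% as higher and 3.91% as lower. RefSeq annotates 85 protein-coding genes of this name pattern, so the 9 listed are 10.6% of those annotated. The 85 include Atp23, which was not listed and falls in none of the vacuolar, P-type and mitochondrial classes. How many of the 85 were tested is not known, so this share has another denominator than the 7.69%. Because the table holds only genes with p below 0.05, every listed member had to differ, and the counts below describe the listed genes without supporting a change of the family.

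The Atp genes with an absolute log2 ratio of at least 1 were Atp6v0e2, Atp1b1, Atp9a and Atp1b3, 4 higher and 0 lower. Of all listed genes, 353 passed that size upward and 237 downward, so 59.8% of them were higher. The median log2 ratio of the 9 Atp genes was 0.45, against -0.36 over all 1285 listed genes, of which 49.1% were higher. An unadjusted p below 0.01 was reached by 5 of the 9, against 28.4% of all listed genes, and the authors' deposited table gave the other 4 a p between 0.0153 and 0.0475.

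**Figure D2:**
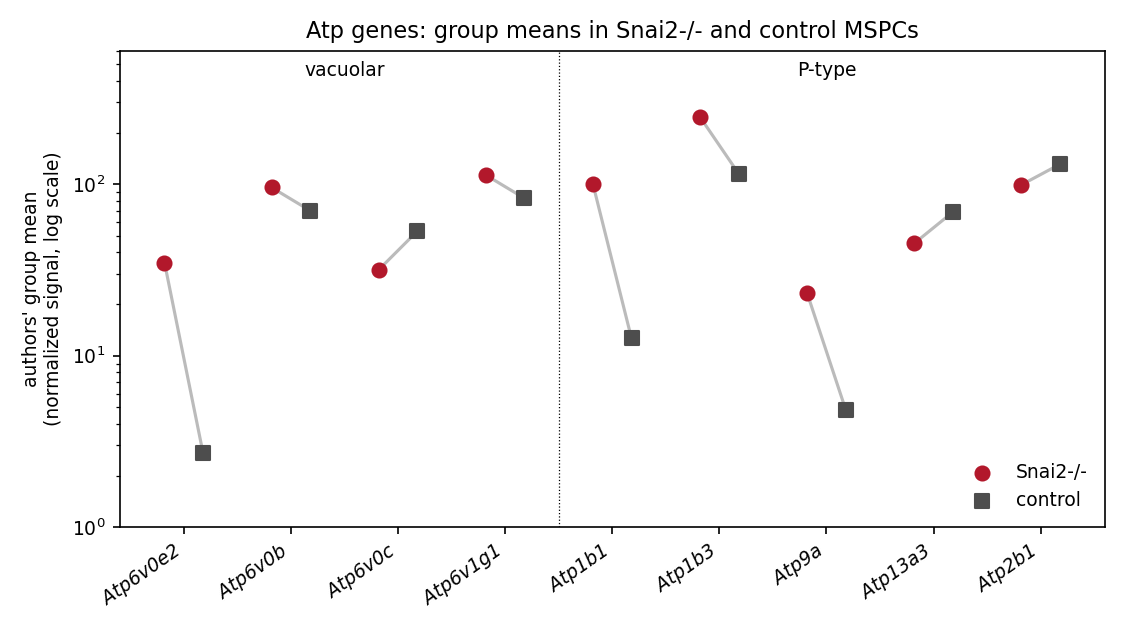
Group means of the 9 Atp genes on the authors' normalized scale (log axis), with Snai2-/- as red circles, control as grey squares and a line joining the pair of each gene. The steepest lines belong to Atp6v0e2 (34.9 in Snai2-/- against 2.71 in control), Atp1b1 (100.01 against 12.6) and Atp9a (23.1 against 4.83), and the lines of Atp6v0c, Atp13a3 and Atp2b1 slope the other way.

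The V-ATPase genes did not share a direction: 3 of the 4 listed had higher means in Snai2-/- cells and 1 had a lower mean. Atp6v0e2, one of a pair of genes for the small membrane subunit e of V0 (GRCm38 chromosome 6, 48537615 to 48541801, plus strand), stood apart from the other 3. In the authors' deposited table its mean was 34.9 in Snai2-/- cells and 2.71 in control cells, 12.9 times as high. It ranked 22 by p in the authors' deposited table, where its unadjusted p was 0.000318 and its FDR 0.242. With 10 added to both means the log2 ratio of 3.69 shrinks to 1.82. Its partner gene for subunit e, Atp6v0e, was not listed. In bulk RNA a lower or higher share of cells that use a gene cannot be told apart from less or more RNA per cell, here and for every gene below.

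The proteolipid ring, which carries the protons, is encoded by Atp6v0c (subunit c) and Atp6v0b (subunit c″), and their means lay on opposite sides. Atp6v0b (chromosome 4, 117884326 to 117887333, minus strand) was given by the authors' deposited table a mean of 95.7 in Snai2-/- cells against 70.1 in control cells. With a ratio of 1.37, its unadjusted p in the authors' deposited table was 0.00830 and its FDR 0.441. Atp6v0c (chromosome 17, 24163866 to 24169702, minus strand) stood in the authors' deposited table at 31.7 in Snai2-/- cells against 53.2 in control cells, 1.68 times lower at an unadjusted p of 0.0371 and an FDR of 0.612. The difference between the 2 ratios was not tested. Read assignment could limit both values. Atp6v0c matches the processed pseudogenes Atp6v0c-ps2 and Atp6v0c-ps1 at 99.8% and 97.2% identity over 465 bases, so its reads could be divided among them. Atp6v0b shares 1670 bases with the antisense gene Gm12841, and the library chemistry does not mark the strand.

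From the V1 sector only Atp6v1g1 was listed, which encodes subunit G1 of the stalk that keeps the V1 head from turning with the rotor (chromosome 4, 63544772 to 63550750, plus strand). Per the authors' deposited table, its mean was 113.1 in Snai2-/- cells and 82.8 in control cells, a ratio of 1.37 at an unadjusted p of 0.0446 and an FDR of 0.639. A ratio this small near the limit of p below 0.05 places it at the edge of the table. It also matches the processed pseudogene Gm13453 at 99.4% identity over 357 bases. Of the 14 genes with Atp6v1 symbols the other 13 were not listed, among them Atp6v1a for the ATP-splitting subunit A and Atp6v1b2 for its partner subunit B. None of the 3 Atp6ap accessory genes was listed, nor were Tcirg1 and Rnasek, V-ATPase subunit genes that carry other names. The share listed over all genes tested was 7.69%.

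The sodium pump genes differed in their beta chains. Atp1b1 encodes the beta 1 chain (chromosome 1, 164437109 to 164458355, minus strand) and had in the authors' deposited table a mean of 100.01 in Snai2-/- cells against 12.6 in control cells. Its ratio in the authors' deposited table was 7.94, with an unadjusted p of 0.0153 and an FDR of 0.488. Atp1b3, for the beta 3 chain (chromosome 9, 96332655 to 96364442, minus strand), had in the authors' deposited table a mean of 246.3 in Snai2-/- cells against 115.2 in control cells. The authors' deposited table put its ratio at 2.14, its unadjusted p at 0.00544 and its FDR at 0.385. Atp1b1 had the wider ratio and the larger p of the 2.

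The other beta chain genes, Atp1b2 and Atp1b4, were not listed. A gene outside the table was either untested or had a p of at least 0.05, so nothing is known here of its level or of its difference. Of 14 regulators of pumps, the Fxyd genes and phospholamban (Pln) among them, 0 were listed, against 7.69% of all genes tested. Read assignment limits both beta chain values. Atp1b1 overlaps Nme7 on the opposite strand over 617 bases, and its main transcript shares 384 identical bases with an Nme7 transcript. Nme7 was not listed. Atp1b3 matches the processed pseudogene Gm1848 at 96.4% identity over 805 bases. No pair among the 9 Atp genes shared 100 bases at 95% identity.

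Of the pumps that work as a single large chain, Atp9a had a higher mean and Atp13a3 and Atp2b1 had lower means in Snai2-/- cells. Atp9a belongs to the P4 family of phospholipid flippases and its product resides on endosomes and the trans-Golgi network (chromosome 2, 168634438 to 168742409, minus strand). The authors' deposited table held a mean of 23.1 for it in Snai2-/- cells and of 4.83 in control cells, a ratio of 4.78 at an unadjusted p of 0.00400 and an FDR of 0.375. It was 1 of 14 annotated P4 genes on the list. Of 20 partner and scramblase genes, including Tmem30a for the chaperone that most flippases need, 0 were listed. The share listed over all genes tested was 7.69%, so nothing particular is read from these counts.

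Atp13a3 encodes a pump of the P5 family that carries polyamines in endosomes (chromosome 16, 30312423 to 30405975, minus strand). Its mean in the authors' deposited table was 45.2 in Snai2-/- cells and 68.8 in control cells, 1.52 times lower at an unadjusted p of 0.00490 and an FDR of 0.385. It is the only listed Atp gene on the chromosome of Snai2, from which it lies 15.6 Mb away. Whether animals of the 2 genotypes differ in alleles around the deleted gene was not tested. Atp2b1 encodes the plasma membrane calcium pump PMCA1, which exports calcium from the cell (chromosome 10, 98914406 to 99026143, plus strand). Its means in the authors' deposited table were 99.2 in Snai2-/- cells and 130.8 in control cells, 1.32 times lower at an unadjusted p of 0.0475 and an FDR of 0.646. Atp2b1 has the smallest absolute log2 ratio of the 9, at -0.40, and matches the pseudogene Gm29808 at 98.1% identity over 468 bases.

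**Figure D3:**
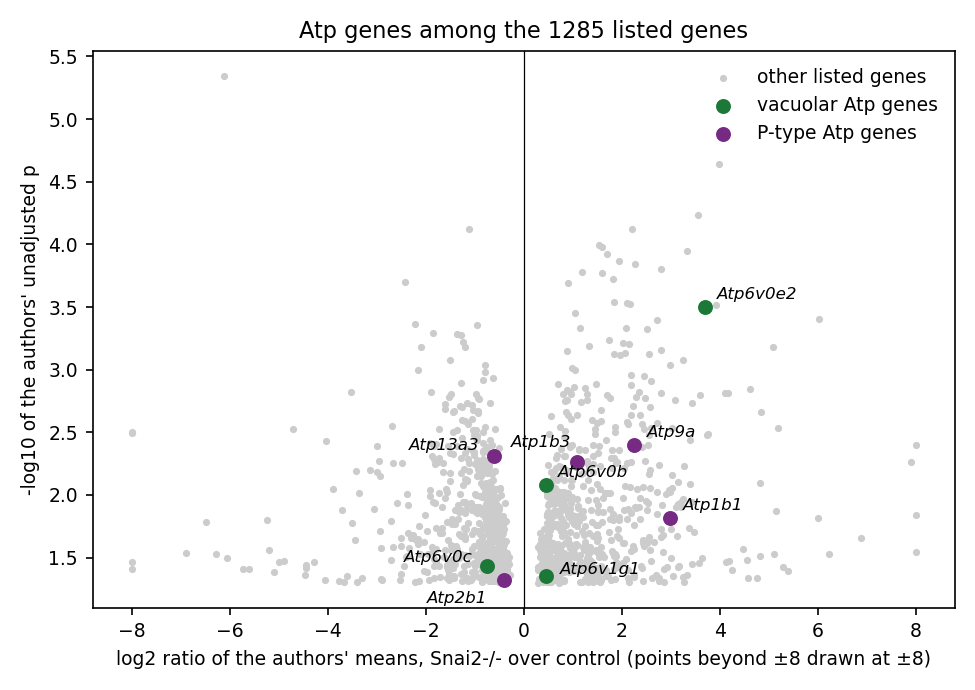
The 1285 listed genes (grey) with the log2 ratio of Snai2-/- over control on the horizontal axis and -log10 of the authors' unadjusted p on the vertical axis, with vacuolar Atp genes in green and P-type Atp genes in purple. Of the Atp genes Atp6v0e2 lies highest, at a log2 ratio of 3.69, and Atp2b1 and Atp6v1g1 lie at the lower edge set by p below 0.05.

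Protein size was not separate from class. The vacuolar genes all code for under 500 residues, as do Atp1b1 and Atp1b3, and the 3 longer ones are all P-type. The 6 listed genes that code for under 500 residues, from 81 (Atp6v0e2) to 304 (Atp1b1), are subunits without a catalytic site of their own, and 5 of them had higher means in Snai2-/- cells. The 3 that code for 1047 residues (Atp9a), 1220 residues (Atp2b1) and 1249 residues (Atp13a3) are complete pumps. Of these pumps 1 had a higher mean. Among all listed genes 49.1% were higher. The split at 500 residues was not among the planned results. The difference between these size groups was not tested, and all 9 genes were listed for a p below 0.05. Transcript length differs with protein size, from 1000 bases in the main transcript of Atp6v0b to 7310 bases in that of Atp13a3, and its part in the ratios was not tested. The 9 genes lie on 8 chromosomes, and the pair on chromosome 4, Atp6v0b and Atp6v1g1, are 54.3 Mb apart.

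By class, the vacuolar genes listed were 4 of 26 annotated symbols (15.4%) with a median log2 ratio of 0.45, and the P-type genes 5 of 41 (12.2%) with a median of 1.10. The 26 include Atp6v1fnb, which is named as a neighbour of Atp6v1f. By mean log2 ratio the 2 classes lay closer, at 0.96 and 1.07, and the P-type median is the value of Atp1b3. The difference between the classes was not tested. None of the 17 annotated mitochondrial genes of this name pattern was listed, and on a wider list of 43 symbols for the F1Fo enzyme, older names, assembly factors and the mitochondrially encoded mt-Atp6 and mt-Atp8 included, 0 were listed. On a list of 33 respiratory chain and carrier genes the count was also 0. Of all genes tested 7.69% were listed, and how many genes of each class were tested is not known. These counts therefore do not show that the classes differ. Pumps for calcium in the endoplasmic reticulum (Atp2a1 to Atp2a3), for copper (Atp7a and Atp7b) and for protons in exchange for potassium (Atp4a, Atp4b and Atp12a) were not listed.

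**Figure D4:**
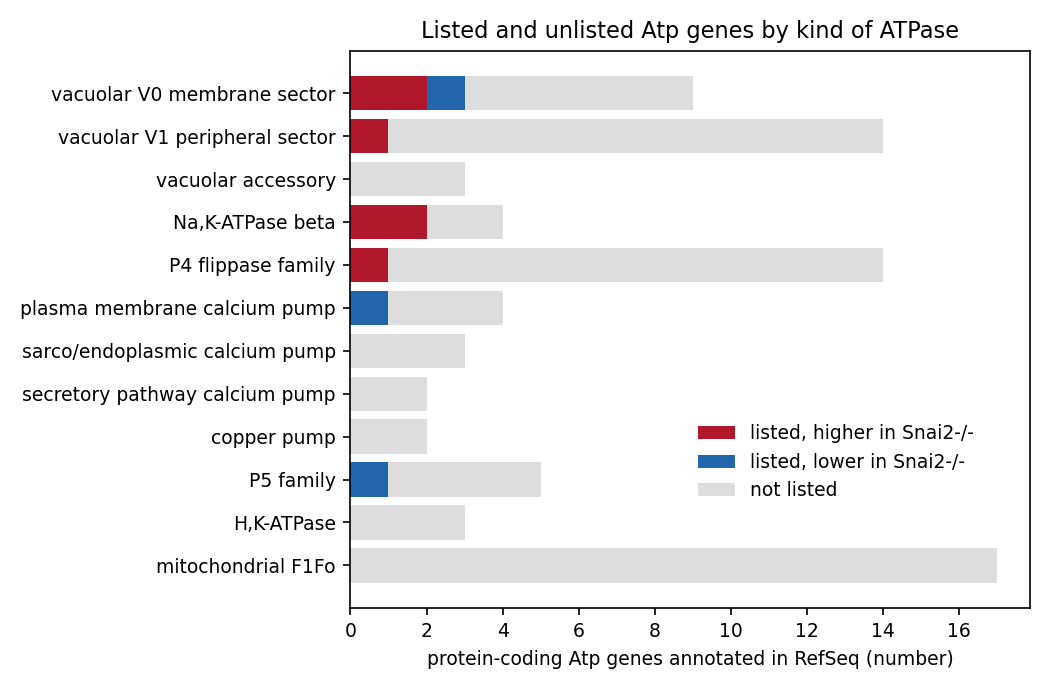
Number of protein-coding Atp genes annotated in RefSeq for the kinds of ATPase shown, split into those listed with a higher mean in Snai2-/- cells (red), listed with a lower mean (blue) and not listed (grey). The V0 sector has 3 of 9 genes listed, the sodium pump beta chains have 2 of 4, and the mitochondrial enzyme has 0 of 17. Of all genes tested 7.69% were listed.

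Genes that work beside these pumps were read in the same table, from lists drawn up with earlier results of these data known, and nothing particular to a list is read from its share. Of 43 lysosomal genes 6 were listed (14.0%, against 7.69% of all genes tested), 2 with higher and 4 with lower means in Snai2-/- cells, with a median log2 ratio of -0.30. In the authors' deposited table the membrane protein gene Lamp2 had a mean of 739.3 in Snai2-/- cells against 924.4 in control cells. Gaa, for acid alpha-glucosidase, stood in the authors' deposited table at 357.0 in Snai2-/- cells against 502.5 in control cells, and the cholesterol carrier gene Npc2 at 235.8 against 329.2. The ratio of Gusb, for beta-glucuronidase, was 0.822 per the authors' deposited table. On the other side, the authors' deposited table gave the protease gene Ctsl a mean of 1235 in Snai2-/- cells against 1003 in control cells and the sorting receptor gene Sort1 a mean of 36.6 against 20.7. None of these 6 had an FDR in the authors' deposited table outside the span between 0.470 and 0.632. Of 16 genes for assembly and regulation of the V-ATPase, 1 was listed: Ncoa7, a TLDc-domain gene, had in the authors' deposited table a mean of 17.5 in Snai2-/- cells against 24.9 in control cells.

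Calcium-handling genes were listed in 5 of 34 cases (14.7%, against 7.69% of all genes tested), 2 higher and 3 lower in Snai2-/- cells. Slc8a3, a sodium-calcium exchanger that depends on the sodium gradient, had in the authors' deposited table a mean of 22.5 in Snai2-/- cells against 5.12 in control cells. For the calcium channel gene Trpv4, the authors' deposited table held 12.9 in Snai2-/- cells against 5.46 in control cells. Lower means in the authors' deposited table belonged to Calr, for the calcium-binding chaperone calreticulin (834.1 in Snai2-/- cells against 1078 in control cells), to the exchanger gene Slc24a3 (5.80 against 13.2) and to the release channel gene Ryr1 (0.00828 against 0.439). Ryr1 is close to 0 in both groups. In the authors' deposited table the FDR of the 5 ran between 0.473 and 0.642.

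Of 21 copper-handling genes 3 were listed (14.3%, against 7.69% of all genes tested), and these 3 had higher means in Snai2-/- cells, as did 49.1% of all listed genes. Neither copper pump was listed. Per the authors' deposited table, the copper importer gene Slc31a1 had 93.8 in Snai2-/- cells against 61.5 in control cells, the metallothionein gene Mt1 had 222.9 against 114.8, and Loxl4, for a copper-dependent lysyl oxidase, had 15.1 against 5.74. The FDR of these 3 in the authors' deposited table lay between 0.592 and 0.640. Of 28 genes for other proton and bicarbonate transport 2 were listed (7.14%, against 7.69% of all genes tested). In the authors' deposited table Car1, a carbonic anhydrase also on the erythroid list, had 137.1 in Snai2-/- cells against 45.7 in control cells, and the proton exchanger gene Slc9a9 had 30.9 against 46.3.

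Markers of cell types other than MSPCs also had different means in the 2 groups, and their part in the values of the Atp genes was not tested. Of 21 osteoblast genes 10 were listed (47.6%, against 7.69% of all genes tested), 9 higher and 1 lower in Snai2-/- cells. Of all listed genes 49.1% were higher. The means of these 10 in the authors' deposited table summed to 24240 in Snai2-/- cells against 6067 in control cells. Among them, the authors' deposited table gave means for Col1a1 (15244 in Snai2-/- cells against 2546 in control cells), Spp1 (7257 against 2931), Dmp1 (716.3 against 83.1) and Alpl (618.3 against 241.2). The sum is made up mostly of Col1a1 and Spp1. Osteopontin, the product of Spp1, is named in the series title, so its direction here is not independent evidence. The neutrophil and monocyte list had 7 of its 18 genes in the table (38.9%, against the same 7.69%), 7 higher. Their means in the authors' deposited table summed to 820.1 in Snai2-/- cells against 186.4 in control cells. Of this list, the authors' deposited table gave means for Ngp (281.5 in Snai2-/- cells against 49.2 in control cells), S100a9 (222.9 against 75.5), Camp (94.9 against 26.0) and Chil3 (90.3 against 18.9). These granulocyte genes, 9 of the 10 osteoblast genes and 6 of the 9 Atp genes had higher means in Snai2-/- cells. With 1 mean per group, a shared direction does not tie genes to one another. None of the 15 osteoclast genes was listed, among them Tcirg1, Acp5, Ctsk and Atp6v0d2, the V-ATPase subunit gene typical of that cell. Their levels are not known here.

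Among the remaining marker lists, Adgre1 was the 1 listed gene of 12 for macrophages, at 0.695 per the authors' deposited table in Snai2-/- cells against 0.0560 in control cells. Both means of Adgre1 are close to 0. Car1 was the 1 listed of 16 erythroid genes. Vwf, on the endothelial and megakaryocyte lists, had a mean in the authors' deposited table of 1.38 in Snai2-/- cells against 23.0 in control cells, and the other endothelial genes listed of 16, Stab1 and Flt4, had 2.73 against 6.61 and 6.85 against 3.28. Of 13 smooth muscle and pericyte genes 2 were listed in the authors' deposited table, Des with 17.8 in Snai2-/- cells against 43.9 in control cells and Mylk with 167.9 against 231.1. Of 14 lymphocyte genes the 1 listed was Ebf1, which is also on the MSPC list, and of 12 Schwann and neural genes 0 were listed. Over all genes tested, 7.69% were listed.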

How the data were processed

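RNA-seq libraries of sorted bone marrow MSPCs (3 Snai2-/-, 3 control) were grouped by genotype in the titles. Per the labels' protocols, SMART-Seq v4 cDNA was made into Nextera XT libraries, a chemistry that does not mark the strand. Trim Galore, HTSeq, edgeR 3.12.0 and mm10 are named in the submitters' processing notes, without roles. Aligner, annotation and statistical model were not given in the sources used here.

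Per the file headers, the deposited table gives the p-value, the FDR step-up adjusted p-value, the ratio of group means, a signed fold-change score that repeats it, and least-squares means as a normalized signal. The mutant columns were taken for Snai2-/- and the wildtype columns for control, as no other group is labelled. The deposited totals are not whole (0 of 1285 within 1e-09), so the means are not raw counts and depth is unknown. All listed p are below 0.05 (largest 0.0499). The number of tests, 16718, was the largest FDR times rank over p, and a step-up adjustment over it matched each FDR within 0.0225%. The same calculation recovered the number in 10 of 10 simulated tables.

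No model was fitted, since the design assumed for library values could not be used on group means. Nothing says that the libraries are separate animals, so the p may measure technical spread only. Members were taken by symbol, and every one is named. Of each other list, all listed genes are named where 6 or fewer, otherwise the 4 with the highest means. Members and lists were chosen with earlier results of these data known. Coordinates are 1-based from GENCODE M21 (GRCm38, which mm10 denotes), and promoters are RefSeq, GRCm38.p6. Near copies were sought with blastn 2.17.0 among GENCODE transcripts, at 95% identity or more over at least 100 bases. Alternatives were limits on FDR, p, fold and mean, pseudocounts of 0.5, 1 and 10, and other promoter windows. Some genes of the family are not reported here. Python 3.11.15, numpy 2.4.6, pandas 2.3.3 and matplotlib 3.10.9 were used.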

Additional observations from a re-analysis of the deposited data

How the results depend on the processing

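No paired analysis was possible because each value in the file already averages a group. The replicate block and the left-out replicates were therefore not run, and whether 1 library decides any value is not known. No Atp gene passed an FDR of 0.01, 0.05, 0.1 or 0.2. The 6 genes with higher means numbered 4 at p below 0.01 and 5 at p below 0.02. The 3 with lower means came to 1 (Atp13a3) at either limit and to 0 at an absolute log2 ratio of at least 1. With 10 added to both means the unlogged ratios of Atp6v0e2, Atp1b1 and Atp9a shrank by over 1.5 times, their log2 ratios to 1.82, 2.28 and 1.16 in place of 3.69, 2.99 and 2.26, and no gene changed sign under pseudocounts of 0.5, 1 or 10. The mean log2 ratio over members was 1.02 for all 9 genes and 0.96 for the vacuolar genes, against medians of 0.45 each. For the P-type genes the mean was 1.07 and the median 1.10. Without the 50 bases after the start, CACGTG was found in 1 gene and TCACGTGA in 0 genes. With any annotated start, an alternative added after seeing the data, the Slug-type core was found in 5 of 7 genes, against 22.6% of all genes. The genes added were Atp9a, with a higher mean in Snai2-/- cells, and Atp6v0c, with a lower mean.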
